A study of Mus musculus with 6 samples.

Results

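The resolution of inflammation is driven in part by signaling lipids, the specialized pro-resolving mediators, which cells make by oxidizing polyunsaturated fatty acids and sense through a small set of receptors. The genes described here are 9 that encode known or proposed receptors of these lipids or of leukotriene B4 (LTB4), namely Fpr1, Fpr2, Fpr3, Gpr18, Gpr37, Cmklr1, Ltb4r1, Ltb4r2, and Rora, together with Anxa1, whose protein product is a peptide ligand of the receptor encoded by Fpr2. They were chosen by gene name, and each of the 10 names was found once among the 49671 genes listed. Their levels come from RNA-Seq of muscle stem cells (MuSCs), the satellite cells that rebuild injured myofibers, sorted from 6 female C57BL/6 mice aged 4 to 6 months. All 6 mice received 50 μL of 1.2% BaCl2, which injures myofibers, in each tibialis anterior (TA) muscle, and the TA muscles of both legs were pooled into 1 library per mouse at day 3. The RvD1 group of 3 mice was given 100 ng of resolvin D1 (RvD1) each day for 72 hours by IP injection, and the vehicle group of 3 mice was given 0.1% ethanol, the solvent in which RvD1 was also delivered. Sorting kept cells with β1-integrin and CXCR4 on their surface and removed cells carrying Sca-1, CD11b, Ter119, or CD45, and the labels add CD31 to these. Both groups were injured, so the comparison asks what daily RvD1 changed in MuSCs of regenerating muscle.

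Most of these receptors span the cell membrane and signal through Gi proteins. FPR2, also called ALX, binds RvD1, lipoxin A4, and annexin A1, and it is best known from neutrophils and macrophages, in which it limits recruitment and favors the clearance of dead cells. RORα, the product of Rora, differs from the others in being a nuclear receptor that binds DNA and takes part in the circadian clock. In muscle, these lipids are studied mainly for their action on the leukocytes that enter after injury.

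Total expected counts, the reads that RSEM assigned to genes, ranged from 17962025 to 28149176 per library with RvD1 and from 16148026 to 18755643 with vehicle. A floor of 3 counts then corresponded to between 0.107 and 0.186 CPM (counts relative to library depth) in a single library and to 0.0250 CPM over all 6, and this floor covers counting error only. The 12 MuSC markers examined were all present, with Myod1 at 239 to 470 TPM (a level that accounts for transcript length) and Pax7 at 4.03 to 8.50 TPM. Markers of macrophages and monocytes summed to 48.4 to 72.3 TPM over 15 genes with RvD1 and to 66.7 to 112 TPM with vehicle. Among 10 neutrophil markers, S100a9, Ly6g, Retnlg, Ltf, and Elane had 0 counts in every library, and the whole list summed to at most 2.37 TPM. The 7 fibroblast and fibro-adipogenic progenitor markers summed to 736 to 1709 TPM with RvD1 and 846 to 926 TPM with vehicle, although Sca-1, encoded by the list member Ly6a, was a gate of the sort. The 10 lymphocyte, 7 endothelial, and 4 erythroid markers summed to at most 3.17, 14.4, and 51.8 TPM.

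Short stretches of sequence bear on how these values can be read. The first concerns Anxa1 (GRCm38 chr19:20373428-20390944, minus strand), whose amino-terminal peptide is the part of annexin A1 known to act on formyl peptide receptors. Its first 26 codons lie in exon 3 (chr19:20384693-20384758) and exon 4 (chr19:20384572-20384583) of the GENCODE M21 transcript, whose coding length is 1038 bases, and the capitals mark codons 2 to 26, which encode that peptide.
Anxa1, start of the coding sequence: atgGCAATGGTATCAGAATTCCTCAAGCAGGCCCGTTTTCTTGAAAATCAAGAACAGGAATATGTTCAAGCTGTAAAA

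The second concerns Fpr2 and Fpr3, neighbors on the plus strand of chromosome 17 whose annotated spans overlap (Fpr2 at chr17:17887824-17893952 and Fpr3 at chr17:17887852-17971677). Their coding sequences of 1053 bases were identical at 928 positions, or 88.1%, and shared an unbroken run of 94 bases, which is longer than the 76-base reads. The windows printed here are coding positions 197 to 330 of each gene, at chr17:17892940-17893073 for Fpr2 and chr17:17970665-17970798 for Fpr3, and the capitals mark the 4 bases that differ. A read that falls inside the lower-case run between the first and second of these marks cannot be assigned to either gene by its sequence.
Fpr2, exon 2: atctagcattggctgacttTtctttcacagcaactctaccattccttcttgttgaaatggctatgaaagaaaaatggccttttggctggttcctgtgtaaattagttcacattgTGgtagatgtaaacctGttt
Fpr3, exon 2: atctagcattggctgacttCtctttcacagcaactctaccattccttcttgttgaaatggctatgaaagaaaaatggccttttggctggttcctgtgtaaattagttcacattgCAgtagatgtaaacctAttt

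Over whole transcripts, 19 of the 1193 distinct 76-base words of Fpr3 also occurred in Fpr2, and 267 of the 1295 words of Fpr2 (20.6%) occurred in another gene, 255 of them in the pseudogene Gm5966. Fpr1, Gpr18, Cmklr1, Ltb4r1, Ltb4r2, and Anxa1 shared no such word with another gene. Ltb4r1 and Ltb4r2, which also sit side by side, were 60.3% identical in coding sequence and shared no run longer than 14 bases.

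Of the 10 genes, 3 had more than 3 counts in every library, namely Anxa1, Rora, and Gpr37. Fpr2 exceeded 3 counts in 2 of the 6 libraries, Gpr18 and Ltb4r2 in 1 each, and Fpr1, Fpr3, Cmklr1, and Ltb4r1 in none. In order of mean TPM over the 6 libraries, Anxa1 stood at 1133, Rora at 19.1, Gpr37 at 0.417, Fpr2 at 0.342, Ltb4r1 at 0.0650, Ltb4r2 at 0.04, Gpr18 at 0.0367, Fpr1 at 0.0333, Cmklr1 at 0.0233, and Fpr3 at 0. The first 3 levels were separate, since within a library the TPM of Anxa1 was at least 37.3 times that of Rora and the TPM of Rora at least 27.8 times that of Gpr37. From Gpr37 downward, neighbors in this order overlapped across the libraries and were not distinguished. Anxa1 ranked 101 among the 26766 genes with a TPM above 0, Rora ranked 6496, and Gpr37 and Fpr2 ranked 15883 and 16496. The transcript of the peptide ligand was therefore among the most abundant, whereas its receptor Fpr2 lay near the detection floor in the same libraries.

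**Figure D1:**
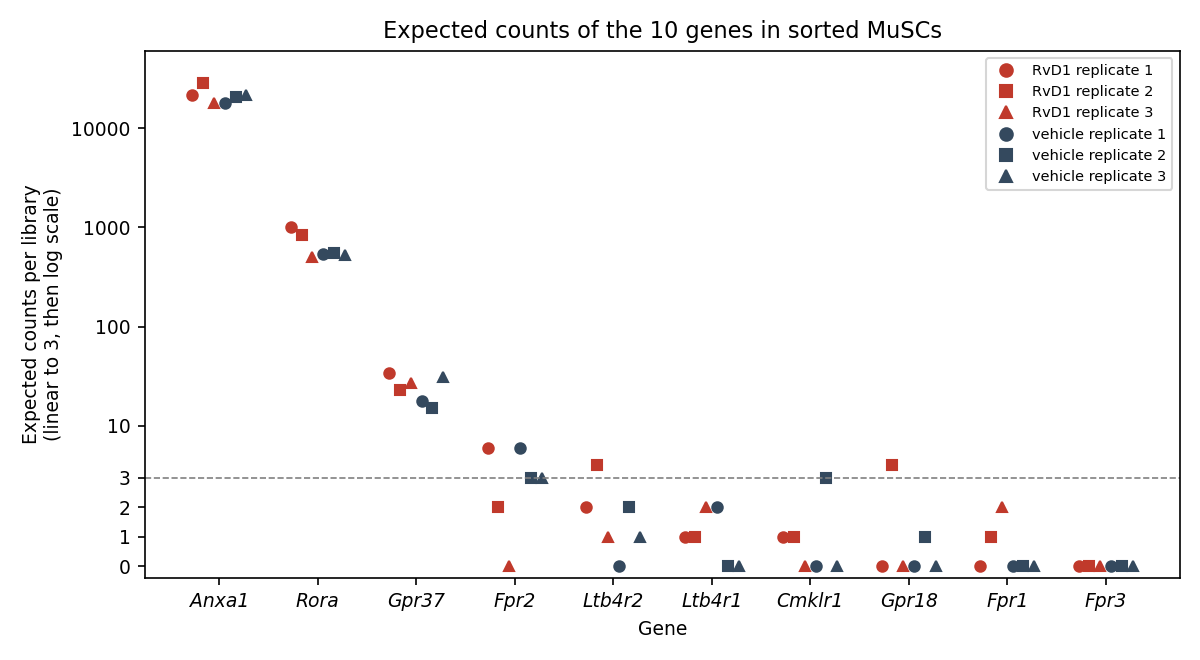
Expected counts (y axis, linear up to 3 counts and logarithmic above) of the 10 genes (x axis) in each of the 3 RvD1 (red) and 3 vehicle (blue) libraries, with 1 point per library and a dashed line at the floor of 3 counts. Anxa1, Rora, and Gpr37 lie above the line in all 6 libraries, and Fpr3 lies at 0 in all of them.

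Across all genes, edgeR's quasi-likelihood test called 0 of 14494 genes tested between RvD1 and vehicle (0%), with a smallest adjusted P value of 0.971, and DESeq2 also called 0. At an unadjusted P below 0.05, edgeR listed 503 genes (3.47%). Anxa1, Rora, and Gpr37 were the only members with enough counts to be tested, and 0 of the 3 were called. The other 7 receptors were too low for the count filter and are given by their counts.

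Anxa1, which encodes a calcium-dependent phospholipid-binding protein that is released by many cells and dampens leukocyte traffic, was at 1082, 1068, and 1090 TPM in RvD1 replicates 1, 2, and 3. In the vehicle replicates it was at 1185, 1192, and 1179 TPM. The groups did not overlap, and every RvD1 library lay below every vehicle library, as 2.52% of the genes tested did on this scale. Group means were 1080 ± 10.9 TPM with RvD1 and 1185 ± 6.12 TPM with vehicle (SD, n = 3), a level of 91.1% of vehicle. On the scale of CPM normalized by TMM, which corrects for composition, the values were 975, 1018, and 992 with RvD1 against 1118, 1177, and 1174 with vehicle, which was 86.0% of vehicle. On that scale 4.83% of genes were separated in the same direction.

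The edgeR log2 fold change of Anxa1 was -0.22 (SE 0.08, 95% CI -0.39 to -0.04), with an unadjusted P of 0.0221 and an adjusted P of 0.971. Genes that were lower with an unadjusted P below 0.05 made up 1.64% of those tested. An exact two-sided permutation test of its log2 CPM gave P = 0.1, the smallest value that 3 against 3 mice allow. The difference was thus larger than the spread among mice within each group, but it did not pass the correction over all genes. Macrophage and monocyte markers were also lower with RvD1, in 14 of the 14 that were tested with a median log2 fold change of -0.44 and 0 called, 4 of them with an unadjusted P below 0.05 in edgeR, and endothelial markers were lower in 6 of the 7 tested, with a median log2 fold change of -1.13 and 0 called. Other lists went the other way. Fibroblast and fibro-adipogenic progenitor markers were higher with RvD1 in 6 of the 7 tested. The exception, Ly6a, was lower (edgeR log2 fold change -0.62, unadjusted P = 0.0141), and its groups did not overlap in CPM. It was the only 1 of the 7 with an unadjusted P below 0.05 in edgeR. Pericyte and smooth muscle markers were higher in 6 of 6, 1 of them with an unadjusted P below 0.05 in edgeR. Schwann cell markers were higher in 6 of 6, 2 of them below 0.05, with 0 called in each list. The part of any of these cell types in the Anxa1 value was not tested. In such bulk libraries, fewer cells of a type and less RNA per cell cannot be told apart.

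**Figure D2:**
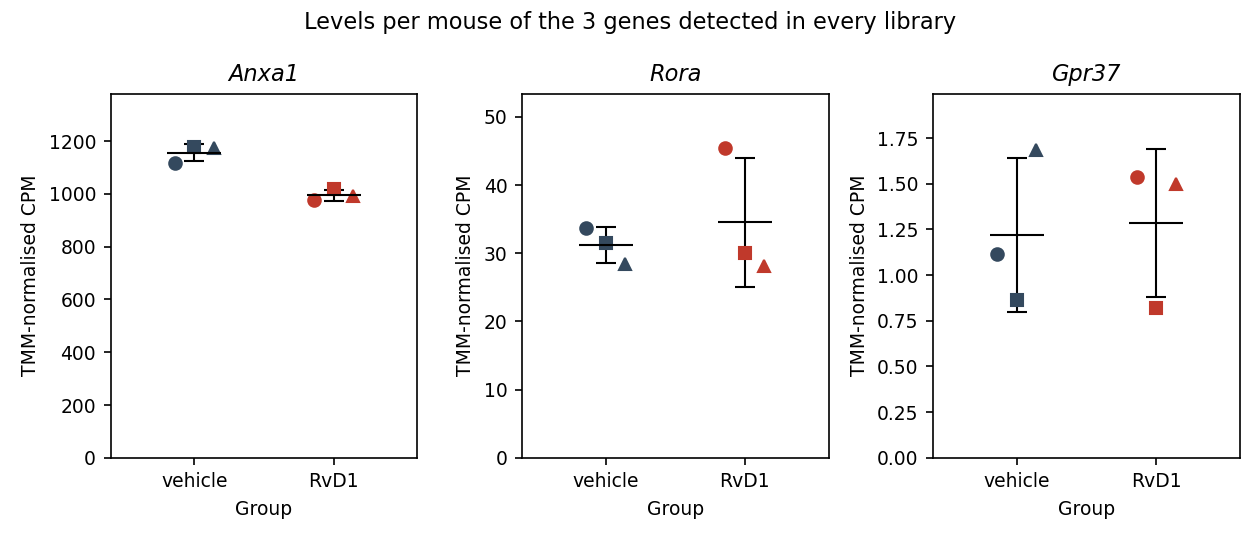
TMM-normalized CPM (y axis, from 0) of Anxa1, Rora, and Gpr37 in vehicle (blue) and RvD1 (red) mice, with 1 point per mouse, a line at the group mean, and error bars of 1 SD (n = 3). Only the Anxa1 panel shows groups that do not overlap, at 975 to 1018 CPM with RvD1 and 1118 to 1177 CPM with vehicle.

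Relatives of Anxa1 gave a scale for its level. The most abundant annexin was Anxa2, which forms a membrane-linking tetramer with S100a10, at a mean of 2187 TPM, followed by Anxa1 at 1133, Anxa5 at 548, and Anxa6 at 508 TPM. Anxa4, Anxa7, Anxa3, and Anxa11 lay between 130 and 45.0 TPM, Anxa9, Anxa8, and Anxa13 between 2.23 and 0.152 TPM, and Anxa10 had no count. The order of Anxa2, Anxa1, and Anxa5 held in each library, while Anxa5 and Anxa6 overlapped. Of 13 other annexins and S100 partners, 11 were tested, 0 were called (0% of all genes), and 0 had an unadjusted P below 0.05. Among the 11, 4 were higher and 7 lower with RvD1, with a median log2 fold change of -0.06 against 0.01 over all genes.

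Named by abundance, Anxa2 had 2150 ± 25.2 TPM with RvD1 and 2224 ± 92.1 TPM with vehicle (SD, n = 3), and its edgeR log2 fold change was -0.13 (SE 0.08, unadjusted P = 0.137). S100a10, the Anxa2 partner, had 1239 ± 134 and 1358 ± 31.1 TPM, with an edgeR log2 fold change of -0.21 (SE 0.10, unadjusted P = 0.0656). S100a11, which binds annexin A1 itself, averaged 1254 TPM after RvD1 and 1304 TPM after vehicle. Anxa2 and S100a10 were the 2 genes of this list whose groups did not overlap in CPM, both lower with RvD1. Among all genes tested, 9.62% were separated in either direction on that scale and 4.83% were separated and lower. In TPM the groups of both genes overlapped. None of these differences passed the correction.

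**Figure D3:**
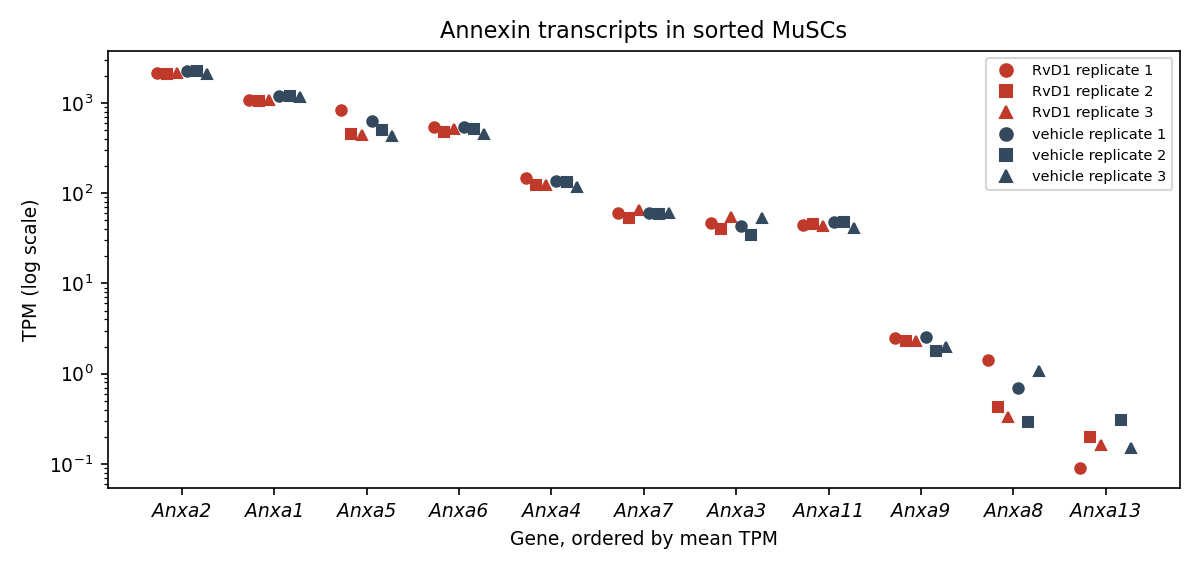
TPM on a log scale (y axis) of the annexins that had a count, ordered by mean TPM (x axis), with 1 point per library for RvD1 (red) and vehicle (blue). Anxa1 is second at 1068 to 1192 TPM, and a library at 0 is not drawn, as for Anxa13 in vehicle replicate 1.

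The formyl peptide receptors sense bacterial and host peptides, and Fpr2 adds the lipids RvD1 and lipoxin A4 to its ligands. Fpr2 had 6, 2, and 0 counts in RvD1 replicates 1, 2, and 3, and 6, 3, and 3 counts in the vehicle replicates. RvD1 replicate 3 had none, replicate 1 of each group had the most, and the groups overlapped. Summed over libraries, 8 counts with RvD1 and 12 with vehicle gave a depth-adjusted ratio of 0.520, with a 95% counting interval of 0.185 to 1.38. The levels were 0.119 CPM with RvD1 (exact Poisson 95% CI 0.0512 to 0.234) and 0.228 CPM with vehicle (0.118 to 0.398). A difference of this size was not detectable at this depth.

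Fitted without the count filter, edgeR gave Fpr2 a log2 fold change of -0.98 with an unadjusted P of 0.385 and an adjusted P of 0.885. Of the 26641 genes in that fit, 4.29% had an unadjusted P below 0.05, and 2.64% were also higher with RvD1. In a limma-voom fit with 1 surrogate variable removed, the log2 fold change of Fpr2 was -1.77, with an unadjusted P of 0.0216 and an adjusted P of 0.383, in a fit in which 11.2% of 26518 genes had an unadjusted P below 0.05. Some 20.6% of its read-length words occur elsewhere, mainly in Gm5966, which was not found by that name among the genes listed. How reads from such words were counted is not known here, and the share of these counts that belongs to Fpr2 was not tested.

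Fpr1, the high-affinity receptor of N-formylated bacterial peptides, had 0, 1, and 2 counts with RvD1 and 0 in each vehicle library. By the 3-count floor, 0 counts over the pooled vehicle libraries allow a level of up to 0.0569 CPM, and the RvD1 counts, at 0.0445 CPM, lay at the 3-count floor of their own pool. Fpr3 had 0 counts in all 6 libraries, which by the same floor allows up to 0.0250 CPM over the 120163447 counts of the whole set. The 4 other formyl peptide receptors of the mouse cluster, Fpr-rs3, Fpr-rs4, Fpr-rs6, and Fpr-rs7, also had 0 counts in every library. Fpr2 was therefore the only member of its family with counts above the floor in any library. Neutrophils and macrophages carry these receptors, and beside them 5 of 10 neutrophil markers were at 0, whereas all 15 macrophage and monocyte markers had counts. Ptprc, which encodes the CD45 used to exclude leukocytes, was at 0.08 to 1.13 TPM, and the part of residual leukocyte RNA in the Fpr1 and Fpr2 counts was not tested.

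Gpr18 has been proposed as the receptor of resolvin D2. It had 4 counts in RvD1 replicate 2, 1 count in vehicle replicate 2, and 0 in the other 4 libraries. The ratio of 4 to 1 counts, 3.12 after adjustment for depth, had a counting interval from 0.309 to 154. These counts do not set a direction for Gpr18.

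Gpr37, an orphan receptor of the nervous system that has been linked to neuroprotectin D1 and to prosaposin peptides, was the only membrane receptor of the set with more than 3 counts in each library. It had 34, 23, and 27 counts with RvD1 and 18, 15, and 31 with vehicle. Its TPM was 0.53, 0.29, and 0.51 with RvD1 and 0.37, 0.27, and 0.53 with vehicle, so each group held both low and high libraries and the groups overlapped. The means were 0.443 ± 0.133 and 0.390 ± 0.131 TPM (SD, n = 3). For Gpr37, edgeR gave a log2 fold change of 0.06 (SE 0.42, 95% CI -0.89 to 1.01, adjusted P = 0.993), an interval that includes changes of nearly 1 log2 unit either way. Schwann cell markers, which mark the glia of peripheral nerve, summed to 49.0, 23.8, and 31.9 TPM with RvD1 and 24.1, 21.0, and 18.3 TPM with vehicle over 6 genes. Of the libraries that tied for the highest Gpr37 TPM, RvD1 replicate 1 had the highest Schwann cell sum and vehicle replicate 3 the lowest. The part of glial RNA in the Gpr37 value was not tested.

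Cmklr1, known as ChemR23, binds the chemoattractant chemerin and the EPA-derived resolvin E1. It had 1, 1, and 0 counts with RvD1 and 0, 3, and 0 with vehicle, which is at or below the floor in every library. The depth-adjusted ratio of 2 to 3 counts was 0.520, with a counting interval from 0.0435 to 4.54.

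The LTB4 receptors carry the opposing, pro-inflammatory signal. Ltb4r1, the high-affinity receptor BLT1 at which resolvin E1 also acts, had 1, 1, and 2 counts with RvD1 and 2, 0, and 0 with vehicle, a ratio of 1.56 (counting interval 0.224 to 17.3). Ltb4r2, the low-affinity receptor BLT2, had 2, 4, and 1 counts with RvD1 and 0, 2, and 1 with vehicle, a ratio of 1.82 (0.416 to 10.9). Both receptors overlapped between groups and neither direction was resolved.

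Added together, the 7 low receptors (Fpr1, Fpr2, Fpr3, Gpr18, Cmklr1, Ltb4r1, and Ltb4r2) had 10, 13, and 5 counts with RvD1 and 8, 9, and 4 with vehicle. The sums of 28 and 21 gave a ratio of 1.04 with a counting interval from 0.570 to 1.93. Over all libraries they reached 0.408 CPM (exact Poisson 95% CI 0.302 to 0.539), and there were 2614 Anxa1 counts for each of their counts. Replicate 3 had the lowest sum in either group. This interval covers counting error over the pooled reads and not the spread between mice.

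Rora encodes RORα, a transcription factor of the clock that has also been proposed to bind maresin 1. It had 1004, 843, and 507 counts with RvD1 and 544, 547, and 523 with vehicle, and 28.98, 17.76, and 15.97 TPM against 20.09, 17.29, and 14.75 TPM. RvD1 replicate 1 stood above all others, and in TPM the remaining RvD1 libraries lay within the range of the vehicle group. The means were 20.9 ± 7.05 TPM with RvD1 and 17.4 ± 2.67 TPM with vehicle (SD, n = 3). The edgeR log2 fold change of Rora was 0.15 (SE 0.18, 95% CI -0.27 to 0.57, adjusted P = 0.971), and the exact permutation P was 0.9. Without RvD1 replicate 1 the log2 fold change was -0.10, so its sign depended on that library. An antisense transcript, Gm15511, overlaps Rora (chr9:68653786-69388246, plus strand), and because counting by strand is not given in the sources used here, reads from the overlap cannot be told apart. The same holds where Gm15736 overlaps Cmklr1, Ubac2 overlaps Gpr18, and the lincRNA 1500015L24Rik overlaps Anxa1 on the opposite strand.

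RvD1 replicate 1 was also the highest library for markers of other mesenchymal and glial cells. Its fibroblast and fibro-adipogenic progenitor sum was 1709 TPM, against 736 to 1075 TPM in the other 5 libraries, its pericyte and smooth muscle sum was 616 TPM over 6 genes against 303 to 453, and its Schwann cell sum was 49.0 TPM against 18.3 to 31.9. Its MuSC marker sum, 3953 TPM, was within the range of 3363 to 4395 TPM of the others, but single MuSC markers differed. Pax7 (8.50 TPM), Myf5 (220 TPM), Megf10 (54.1 TPM), Vcam1, Sdc4, and Itgb1 were also highest in RvD1 replicate 1. By contrast, Myod1, Myog, Itga7, Cdh15, and Des were highest in RvD1 replicate 3 and Cxcr4 in vehicle replicate 1. Myod1 was lowest in RvD1 replicate 1, at 239 TPM. Over the 6 libraries and as a description only, the genes whose TMM log2 CPM followed Rora most closely were Fap, which encodes fibroblast activation protein (Pearson r = 0.999), and Mxra7 (r = 0.998). As many as 896 genes, or 6.18% of the 14493 compared, had an r above 0.9 with Rora, so such values are common with 6 points that share 1 high library. The part of these other cell types in the Rora level was not tested.

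**Figure D4:**
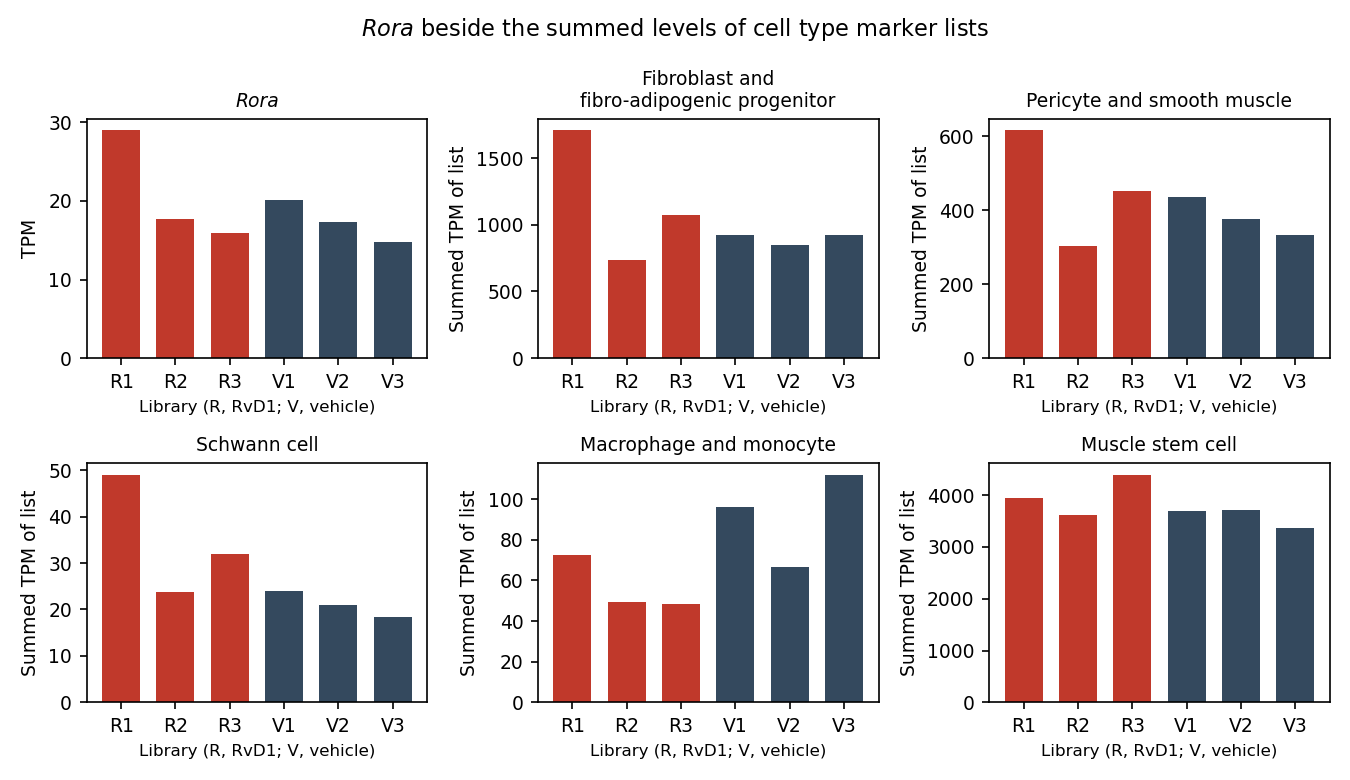
TPM of Rora and summed TPM of 5 cell type marker lists (y axes, from 0) in RvD1 replicates 1 to 3 (R1 to R3, red) and vehicle replicates 1 to 3 (V1 to V3, blue), with 1 bar per library. R1 is the highest bar for Rora at 28.98 TPM and for the fibroblast, pericyte, and Schwann cell lists, and it is not the highest for the macrophage or MuSC lists.

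Rora shares its DNA element with the repressors Nr1d1 and Nr1d2 (REV-ERBα and REV-ERBβ), and all 13 genes of a ROR and clock list were tested. None was called, and 2 had an unadjusted P below 0.05 in edgeR, as did 3.47% of all genes tested. In this list 10 were higher and 3 lower with RvD1, and the median log2 fold change was 0.22, while 53.5% of all genes had a value above 0. Nr1d2 had 44.8 ± 1.39 TPM with RvD1 and 36.0 ± 5.53 TPM with vehicle (SD, n = 3), and its log2 fold change in edgeR was 0.24 (SE 0.09, unadjusted P = 0.0323, adjusted P = 0.971). Clock, the activator partner of Arntl, was at 27.5 and 22.9 TPM, and the repressor Cry1 at 27.3 and 23.7 TPM. The times of day of collection are not given in the sources used here.

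Ligands of the receptors other than annexin A1 were measured in 7 genes, of which 3 were tested and none called. Psap, the precursor of the prosaposin peptides linked to Gpr37, averaged 182 TPM after RvD1 and 174 TPM after vehicle. Rarres2, which encodes the Cmklr1 ligand chemerin, averaged 20.4 ± 10.4 TPM after RvD1 and 11.4 ± 2.89 TPM after vehicle (SD, n = 3), and edgeR gave a log2 fold change of 0.73 (SE 0.36, unadjusted P = 0.0737). Hebp1, the source of a peptide that acts on formyl peptide receptors, was at 1.98 and 1.30 TPM. As with Anxa1 and Fpr2, Psap and Rarres2 were present at levels far above those of Gpr37 and Cmklr1 in the same libraries.

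Enzymes that make or break down pro-resolving lipids and leukotrienes formed a list of 17, of which 10 were tested, 5 higher and 5 lower with RvD1, and none called. Lta4h, which makes LTB4, averaged 144 ± 11.2 TPM after RvD1 and 149 ± 9.33 TPM after vehicle (SD, n = 3). Ltb4r1, which encodes a receptor of LTB4, was at 0 to 0.15 TPM in the same libraries. Hpgd and Ptgr1, which inactivate these lipids, averaged 105 and 39.8 TPM after RvD1 and 113 and 42.0 TPM after vehicle. Ltc4s, which makes leukotriene C4, had the smallest unadjusted P of this list, 0.0570 in edgeR, with 5.12 ± 0.691 TPM against 7.26 ± 0.345 TPM and a log2 fold change of -0.60 (SE 0.28).

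Other receptors of lipid mediators numbered 17 in the list, of which 6 were tested, 5 higher and 1 lower, and none called. Ptger4, a prostaglandin E2 receptor, led with 7.15 ± 1.38 TPM after RvD1 and 6.26 ± 0.257 TPM after vehicle (SD, n = 3). Gpr37l1, the nearest relative of Gpr37, followed at 2.87 ± 2.28 and 1.69 ± 1.10 TPM, so its mean exceeded that of Gpr37 in both groups. Ptgfr, the prostaglandin F2α receptor, was at 1.05 and 1.12 TPM. Ccrl2, a chemerin-binding relative of the chemokine receptors, had the smallest unadjusted P of the list (0.202 in edgeR, log2 fold change 0.77).

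The Gi proteins and arrestins that couple to these receptors ranged widely in level. Arrb1 and Gnaz, at means of 0.627 and 0.522 TPM, were near Gpr37 at 0.417 TPM. Gnao1 was at 5.54 TPM and Arrb2 at 18.7 TPM, and the Gnai genes were higher. Gnai2 averaged 514 TPM after RvD1 and 522 TPM after vehicle, Gnai3 at 216 and 205 TPM, and Gnai1 at 35.3 and 32.0 TPM. Of 7 such genes, 6 were tested, 4 were higher and 2 lower, and none was called. Gnao1 had the smallest unadjusted P, 0.0503 in edgeR, with a log2 fold change of 0.44 (SE 0.19).

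Among the 14493 other genes, Sh3bgrl3 (r = 0.995) and Mff (r = 0.992) followed the TMM log2 CPM of Anxa1 most closely over the 6 libraries, and 184 genes (1.27%) had an r above 0.9. For Gpr37 these were Fbn2 (r = 0.986) and Zfp112 (r = 0.977), with 64 genes (0.442%) above 0.9. All points share the same 6 libraries, and these values are descriptions.

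Estimates of the 3 tested genes were compared over 13 ways of scaling, filtering, and modeling the counts or TPM. The log2 fold change of Anxa1 lay between -0.22 and -0.13 and was below 0 in all 13, with an unadjusted P below 0.05 in 9 of them and adjusted P values of 0.168 to 1.00 in the edgeR, DESeq2, and limma fits. Leaving out 1 mouse at a time gave -0.24 to -0.20. Rora ranged from 0.06 to 0.23 over the 13 settings and from -0.10 to 0.27 when 1 mouse was left out, and Gpr37 from -0.02 to 0.15 and from -0.14 to 0.37. The direction was the same throughout for Anxa1 and depended on the setting or the mouse for Rora and Gpr37.

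**Figure D5:**
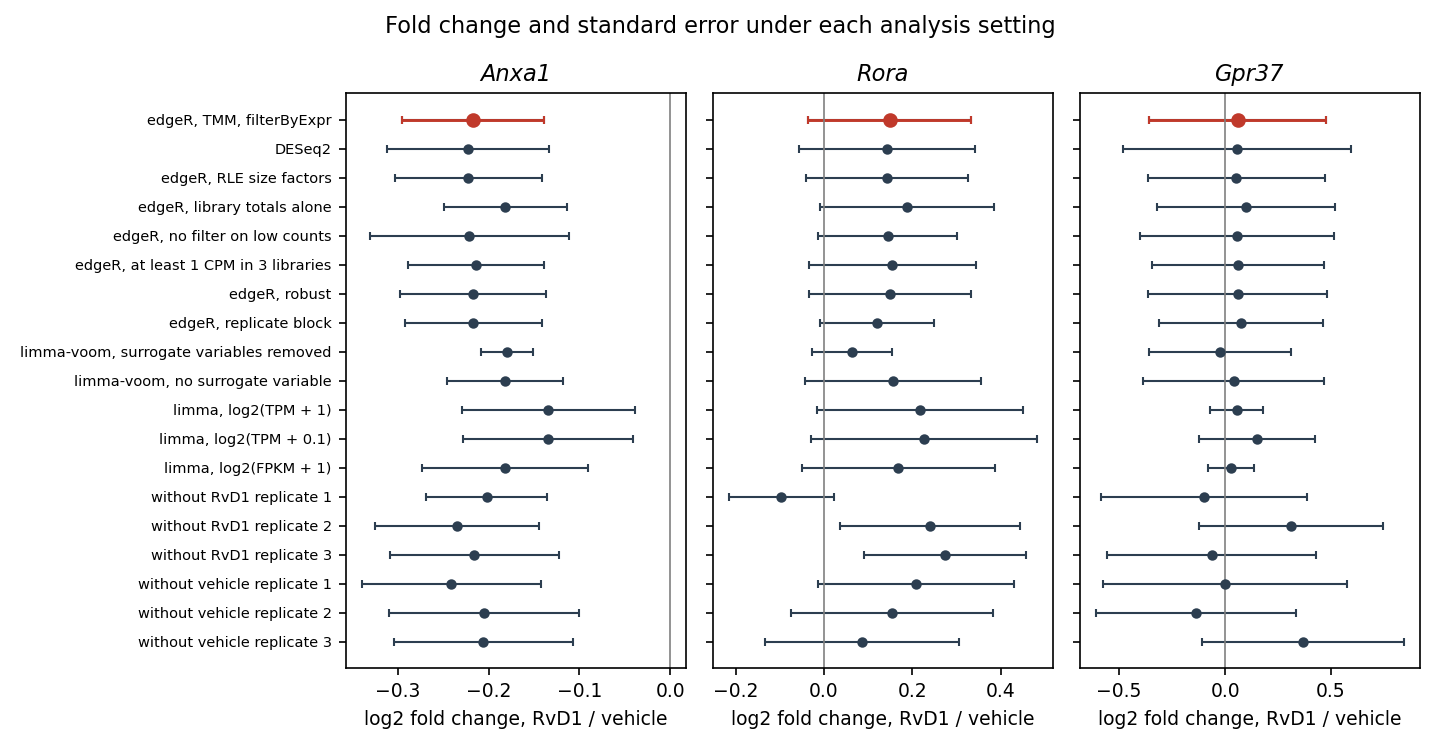
Log2 fold change of RvD1 over vehicle (x axes, a separate range for each gene) for Anxa1, Rora, and Gpr37 under each setting (y axis), with points for the estimate, bars for 1 standard error, and the edgeR result given in the text in red. All Anxa1 points lie left of 0, whereas Rora and Gpr37 points fall on both sides.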

How the data were processed

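RNA-Seq of sorted MuSCs from 3 RvD1 and 3 vehicle mice was read from tables in which 1 stray header line was removed. The authors aligned 76-base single-end reads from SMART-Seq cDNA to mm10 with STAR 2.5.0a and used RSEM to quantify each gene. Deposited expected counts are raw estimates from RSEM. In the deposited TPM the authors divided by transcript length and set every library to the same sum, and the deposited FPKM divides by length and fragment number. Reads carry no molecular identifiers, so intervals and floors cover counting error only.

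Counts were rounded and tested with edgeR 4.0.16 (R 4.3.3, TMM, filterByExpr by group, quasi-likelihood) over all genes, with Benjamini-Hochberg adjustment and a threshold of 0.05. The authors' limma-voom model with surrogate variables was run as an alternative (limma 3.58.1, sva 3.50.0), because its filter and number of surrogate variables are not stated, along with DESeq2 1.42.0, other scalings and filters, pseudocounts of 1 and 0.1, a replicate block, and leaving out each mouse. The pipeline was tested on simulated data. Ratios of low counts have exact conditional binomial intervals (95%).

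The 10 genes, the gene lists, and the marker lists were chosen with earlier results of these data known. Named list genes are the 3 with the highest mean TPM and the 1 with the smallest unadjusted P, and other list members were named after their values were seen. Likeness is the Pearson r of TMM log2 CPM. Positions and sequences are from GENCODE M21 on GRCm38, the same assembly as mm10. Uninjured MuSCs were not analysed here.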

Additional observations from a re-analysis of the deposited data

How the results depend on the processing

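No gene was called in 11 of the 12 other settings that kept all 6 libraries, and 12 genes were called by edgeR without a filter on low counts, none of them in the receptor, ligand, or pathway lists and 1 of them the macrophage marker Lyz2. Leaving out 1 library at a time called 0 to 1 genes, the 1 without RvD1 replicate 3, and none of the 10 genes was called in any setting. Anxa1 kept its direction throughout. Rora lay between -0.10 and 0.27 when 1 library was left out and was below 0 without RvD1 replicate 1. Gpr37 reversed to -0.024 with surrogate variables removed in limma-voom, and lay between -0.14 and 0.37 when 1 library was left out, below 0 without RvD1 replicate 1 (-0.10), RvD1 replicate 3 (-0.06), or vehicle replicate 2 (-0.14). The cause was not tested. With a replicate block, edgeR called 0 genes (smallest adjusted P 0.791), and log2 fold changes were -0.22 for Anxa1, 0.12 for Rora, and 0.07 for Gpr37. Same-numbered libraries of the groups correlated at 0.310, -0.000710, and 0.126 in their deviations from the group means, and the labels do not pair mice, so the numbers were not taken as pairs. Requiring 1 TPM in every library left 2 detected genes, Anxa1 and Rora. In FPKM the mean levels were 701 for Anxa1, 11.8 for Rora, and 0.258 for Gpr37. For the 7 low receptors, 3 counts in a library equal 0.107 to 0.186 CPM, and lower levels were not detectable.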

Other observations

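A further 3 genes of the same signaling system were too low for the count filter and were picked out after their values were seen. Lgr6, which encodes a proposed membrane receptor of maresin 1, had 9, 10, and 14 counts in RvD1 replicates 1, 2, and 3 and 5, 2, and 0 in the vehicle replicates. Its groups did not overlap in CPM, as was so in either direction for 9.62% of the 14494 genes that passed the filter. That share was not computed for genes below the filter. For Lgr6, edgeR without a count filter gave a log2 fold change of 1.83 (SE 0.89), with an unadjusted P of 0.0457 and an adjusted P of 0.885. In that fit 702 of 26641 genes (2.64%) were higher with RvD1 at an unadjusted P below 0.05. Saa1, an acute-phase protein that can act on FPR2, had 11, 3, and 7 counts with RvD1 and 1, 0, and 1 with vehicle. The same edgeR fit gave it a log2 fold change of 2.89 (SE 1.21), an unadjusted P of 0.0221, and an adjusted P of 0.885. Tbxa2r, the thromboxane A2 receptor, had 13, 7, and 6 counts with RvD1 and 3, 2, and 3 with vehicle, and edgeR gave 1.29 on the log2 scale (SE 0.87) with an unadjusted P of 0.146. None of the 3 passed the correction over all genes. All 3 were higher with RvD1, but some other listed genes below the filter were not. Ptafr, from the list of other lipid mediator receptors, had 2, 0, and 1 counts with RvD1 and 4, 4, and 4 with vehicle. Saa2, from the ligand list, had 4, 5, and 3 counts with RvD1 and 3, 0, and 7 with vehicle, and its groups overlapped.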
